A study of Mus musculus with 8 samples.

Results

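The genes described here are 8 that mark GABAergic interneurons other than the parvalbumin class: Sst (somatostatin), Cort (cortistatin), Npy (neuropeptide Y), Vip (vasoactive intestinal peptide), Cck (cholecystokinin), Crh (corticotropin-releasing hormone), Tac2 (the neurokinin B precursor) and Calb2 (calretinin). They were chosen by symbol, as 7 peptides and 1 calcium-binding protein, from the 38553 genes of the deposited expression table. All 8 were found there, and 7 of them were among the 13674 genes that could be tested. Crh was left out because the authors marked it as having too few alignments.

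The libraries hold RNA from the dorsal and the ventral medial entorhinal cortex (MEC) of 13 male C57BL/6JolaHsd mice aged 8 weeks, for which the labels name no treatment or genetic change. Each brain gave 1 sagittal slice of 400 µm through the right MEC, which was dissected into a dorsal and a ventral piece, and pieces of 3 or 4 mice were pooled, which gave 4 dorsal and 4 ventral libraries. Expression is given as FPKM, in which fragments are divided by exon length and by library size, so that the levels of different genes are per length. The headers of the FPKM columns, D1 to D4 and V1 to V4, disagree with the authors' own comparison of the regions for 4 of the 8 libraries. Columns D1, V1, D2 and V2 are taken as dorsal here and columns D3, V3, D4 and V4 as ventral, because their means match the authors' dorsal and ventral means within 0.1% for 21861 of 21876 genes. The next best of the 70 possible assignments matched 1273 genes. Every dorsal or ventral value below rests on this assignment, and with the regions that the headers name no member passed the test.

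Cortical inhibitory neurons release GABA, and many of them also store peptides in dense-core vesicles that act on G protein-coupled receptors of nearby cells. Somatostatin cells, many of which are Martinotti cells, mainly contact dendrites, and some of them also hold Npy, Cort or calretinin. Vip cells, part of which hold calretinin, Tac2 or Crh, mainly contact other interneurons. Npy is also a marker of neurogliaform cells, and Cck marks a class of basket cells but is transcribed in many pyramidal neurons as well. In RNA from whole tissue, fewer cells of a class and less RNA per cell cannot be told apart.

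Of the 8 genes, 4 differed between the regions. Sst, Tac2 and Calb2 were higher in ventral MEC (V>D) and Npy was higher in dorsal MEC (D>V), whereas Cort, Vip and Cck did not pass the test. A gene was called when its Benjamini-Hochberg adjusted p over all genes tested with limma was under 0.05 and its mean FPKM differed by more than 20%. By this rule 492 of the 13674 genes were called, or 3.6%, of which 198 (1.45%) were V>D and 294 (2.15%) were D>V. Dorsal and ventral libraries did not overlap for the same 4 members, against 11.1% of all genes tested. The plot of FPKM by library shows the separation of these 4 genes and the overlap of the others.

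**Figure D1:**
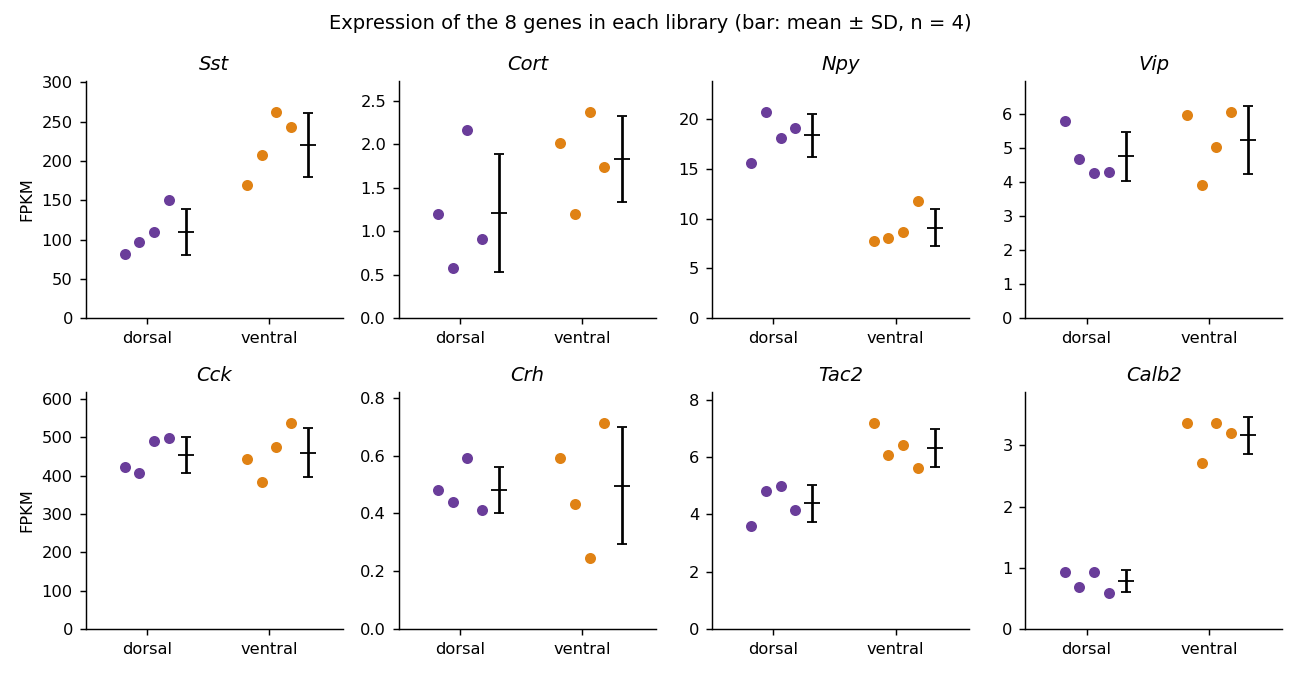
FPKM of each of the 8 genes in the 4 dorsal (purple) and 4 ventral (orange) libraries, in the order D1, V1, D2, V2 and D3, V3, D4, V4 of their headers, with axes from 0 and the mean ± SD beside the points. All ventral points lie above the dorsal points for Sst, Tac2 and Calb2 and below them for Npy, and the points of Cort, Vip, Cck and Crh overlap.

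Sst, the peptide that inhibits release from many neurons and endocrine cells, lies on chromosome 16 (GRCm38, 23889581 to 23890844, minus strand) and ranked at 199 of 13674 genes by mean FPKM. Its FPKM was 81.55, 97.1, 109 and 150.2 in dorsal libraries D1, V1, D2 and V2. In ventral libraries D3, V3, D4 and V4 it was 169, 207, 262 and 243. The highest dorsal value was thus below the lowest ventral value, although both regions varied, by 26.8% of the mean (coefficient of variation) in dorsal and 18.7% in ventral libraries. Mean expression was 109 ± 29.4 FPKM in dorsal and 220.4 ± 41.1 FPKM in ventral MEC (SD, n = 4 each), a 2.01-fold difference. On the log2(FPKM + 1) scale the difference was 1.02 (SE 0.185, 95% interval 0.61 to 1.43, limma adjusted p = 0.0147). Without the dorsal library headed V1 the adjusted p was 0.0553.

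Cort encodes cortistatin, a peptide that binds all somatostatin receptors, and lies on chromosome 4 (149125034 to 149126763, minus strand). The ends of both coding sequences, which hold the part that becomes the mature peptide, are shown because they show how far the 2 genes can be told apart by reads. Each line gives the last 51 coding bases before the stop codon, read from the GENCODE M21 transcripts, with bases that are identical in an ungapped in-frame alignment in capitals.
Sst, chr16:23889732-23889782, minus strand: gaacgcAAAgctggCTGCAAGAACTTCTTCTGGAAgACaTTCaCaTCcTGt
Cort, chr4:149125267-149125317, minus strand: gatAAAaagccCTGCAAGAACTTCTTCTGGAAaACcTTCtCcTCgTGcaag
Of the 48 aligned bases 34 were identical (70.8%), and the longest run shared by the full transcripts was 21 bases, the stretch of capitals in the middle. Cort FPKM was 1.20, 0.582, 2.16 and 0.911 in dorsal libraries D1, V1, D2 and V2, and 2.01, 1.20, 2.37 and 1.74 in ventral libraries D3, V3, D4 and V4. The regions overlapped, and the dorsal library headed D2 was above 3 of the 4 ventral libraries. Mean Cort expression was 1.21 ± 0.679 FPKM in dorsal and 1.83 ± 0.494 FPKM in ventral MEC (SD, n = 4 each). The difference of 0.39 on the log2(FPKM + 1) scale had a 95% interval from -0.08 to 0.85 (limma adjusted p = 0.420), and this interval includes the difference of Tac2 given below. The dorsoventral differences of Sst and Cort were not distinguishable either, with a gap of 0.63 in log2 (exact permutation test, p = 0.143).

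Npy, a peptide that acts on Y receptors and dampens transmitter release, lies on chromosome 6 (49822710 to 49829507, plus strand). It was the only one of the 8 genes called D>V. Its FPKM was 15.6, 20.7, 18.1 and 19.1 in dorsal libraries D1, V1, D2 and V2. In ventral libraries D3, V3, D4 and V4 it was 7.76, 8.04, 8.69 and 11.8. Every dorsal value exceeded every ventral one, with the ventral library headed V4 closest to the dorsal range. Mean expression was 18.4 ± 2.16 FPKM in dorsal and 9.08 ± 1.87 FPKM in ventral MEC (SD, n = 4 each), so that Npy was 2.03-fold higher dorsally. On the log2(FPKM + 1) scale the difference was -0.95 (SE 0.127, 95% interval -1.24 to -0.67, limma adjusted p = 0.00279).

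Sst and Npy, which share part of their neurons in cortex, thus differed in opposite directions. The ratio of Sst to Npy FPKM within a library was 5.23, 4.69, 6.03 and 7.85 in dorsal MEC and 21.8, 25.8, 30.2 and 20.6 in ventral MEC. No dorsal ratio reached the ventral range. Their dorsoventral differences were 1.97 apart in log2 (exact permutation test, 2-sided, p = 0.0286, the smallest value that 70 regroupings can give). Because each gene alone separated the regions, in opposite directions, this separation and its p were given in advance and add no further support. Sst and Npy were 1 of 5 pairs of genes compared in this way, and the p-values of these pairs were not adjusted.

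The upstream sequences of Sst, Npy and Vip are shown because these genes were V>D, D>V and not called. They are the 250 bases before the RefSeq start site (GRCm38.p6), written 5′ to 3′ on the strand of the gene. Capitals mark TGACGTCA in Sst, the letters of the cAMP response element that CREB family proteins bind, its shorter core TGACG in Vip, and GGGCGG in Npy, the GC box that Sp family proteins bind.
Sst, chr16:23890845-23891094, minus strand: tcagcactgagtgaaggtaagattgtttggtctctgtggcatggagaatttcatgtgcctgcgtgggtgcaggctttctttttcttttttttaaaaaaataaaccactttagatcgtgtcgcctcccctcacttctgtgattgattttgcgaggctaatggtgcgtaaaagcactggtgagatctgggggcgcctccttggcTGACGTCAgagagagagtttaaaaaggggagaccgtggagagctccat
Npy, chr6:49822460-49822709, plus strand: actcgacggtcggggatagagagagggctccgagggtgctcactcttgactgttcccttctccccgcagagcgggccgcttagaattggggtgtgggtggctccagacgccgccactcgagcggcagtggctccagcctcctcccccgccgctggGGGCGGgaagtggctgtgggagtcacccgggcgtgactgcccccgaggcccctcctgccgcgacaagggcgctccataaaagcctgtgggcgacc
Vip, chr10:5638968-5639217, plus strand: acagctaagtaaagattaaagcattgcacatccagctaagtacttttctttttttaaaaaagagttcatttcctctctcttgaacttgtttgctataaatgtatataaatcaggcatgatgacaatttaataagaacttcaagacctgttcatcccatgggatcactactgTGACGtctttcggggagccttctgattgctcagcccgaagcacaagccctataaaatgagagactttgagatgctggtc
Both strands of these windows were searched for the 3 motifs, and positions count back from the start site. Sst held TGACGTCA from -48 to -41, a motif found in 508 of 32851 RefSeq windows of this length (1.55%). In GENCODE M21 the first Sst exon begins further upstream than in RefSeq and includes this element. TGACG, which is also part of the longer motif, occurred in 17.8% of all windows, and among the members also in Vip from -79 to -75, in Cck from -47 to -43 and in Cort from -18 to -14. GGGCGG occurred in 32.7% of all windows and among the members in Npy alone, from -95 to -90. The Tac2 window held none of the 3 motifs. Windows were found for 6 of the 8 genes, the others being Crh and Calb2. The members with TGACG thus included 1 that was called V>D and 3 that were not called.

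Calb2, the calcium buffer calretinin, lies on chromosome 8 (110142539 to 110168206, minus strand) and had the largest ratio among the 8 genes. Its FPKM was 0.931, 0.683, 0.935 and 0.590 in dorsal libraries D1, V1, D2 and V2. In ventral libraries D3, V3, D4 and V4 it was 3.37, 2.72, 3.36 and 3.20. The 4 ventral values lay close together and far above the dorsal ones. Mean expression was 0.785 ± 0.175 FPKM in dorsal and 3.16 ± 0.308 FPKM in ventral MEC (SD, n = 4 each), a 4.03-fold difference. Calb2 was the gene with the 13th largest ventral to dorsal ratio of the 13674. Its dorsal mean was under 1 FPKM, so it passed the filter on low expression, a mean of at least 1 over the 8 libraries, only through its ventral values. On the log2(FPKM + 1) scale, which understates the change of a gene at this level, the difference was 1.22 (SE 0.108, 95% interval 0.98 to 1.46, limma adjusted p = 0.000408).

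Calretinin is also made outside interneurons, in Cajal-Retzius cells and in parts of thalamus and hippocampus. Genes of these cells and regions, not all of them genes of calretinin cells, are given here beside it. Of the 7 Cajal-Retzius cell genes, 5 were under 1 FPKM in every library and were not tested. Lhx5 was at 0 throughout, and the other 4 had higher means in ventral MEC, the direction of Calb2. These means were 0.0288 and 0.0981 FPKM in dorsal and ventral MEC for Lhx1, 0.0591 and 0.144 for Nhlh2, 0.0897 and 0.165 for Trp73, and 0.261 and 0.430 for Ebf3, and dorsal and ventral libraries overlapped for each of the 4. Neither of the 2 tested, Reln and Cacna2d2, was called by limma, and 0 had an unadjusted p under 0.05. These 2 made up nearly all of the summed FPKM of the list, 35.3 to 42.7 in dorsal and 41.1 to 47.6 in ventral libraries. The paper places Reln in layer II between its cell islands, so it is not particular to Cajal-Retzius cells in the MEC. Of the 6 CA1 and subiculum genes, 5 were tested and called. Nts, Fibcd1, Fn1 and Mpped1 were V>D and Wfs1 was D>V, of which the Fn1 call held in 1 of the 8 refits without 1 library, while their summed FPKM overlapped, at 116 to 138 in dorsal and 117 to 133 in ventral libraries. In the paper, Nts is among the genes that set off layer Va of the MEC, and Wfs1 is shown with layer-specific expression there. Both are thus not particular to CA1 and subiculum. Nts rose from 0.770 ± 0.312 to 4.14 ± 0.631 FPKM and Fibcd1 from 0.641 ± 0.215 to 2.52 ± 0.651 (SD, n = 4 each; limma adjusted p = 0.000410 and 0.00296). Their log2 ratios were 2.43 and 1.98, beside 2.01 for Calb2. Like Calb2, both had dorsal means under 1 FPKM and passed the filter on low expression only through their ventral values. Of the thalamus genes other than Calb2 itself, Rora and Plekhg1 were D>V. Prkcd went the other way without overlap, from 2.70 ± 0.366 to 4.50 ± 0.950 FPKM, and Tcf7l2 from 4.76 to 5.76. Neither was called (limma adjusted p = 0.0520 and 0.628). Summed FPKM of the thalamus list was lower ventrally, at 38.5 to 41.7 against 46.7 to 51.5, and Rora gave the largest part, with means of 31.1 in dorsal and 21.6 in ventral MEC. The part of these cells and regions in the Calb2 result was not tested.

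Vip, the peptide of interneurons that inhibit other interneurons, lies on chromosome 10 (5639218 to 5647614, plus strand). Its FPKM was 5.81, 4.67, 4.25 and 4.29 in dorsal and 5.96, 3.90, 5.04 and 6.06 in ventral libraries, in the same order of headers. The ventral values spanned the whole dorsal range. Mean Vip expression was 4.75 ± 0.725 FPKM in dorsal and 5.24 ± 1.004 FPKM in ventral MEC (SD, n = 4 each). The 95% interval of the difference ran from -0.18 to 0.40 on the log2(FPKM + 1) scale (limma adjusted p = 0.757), which does not show that the regions are alike but does not reach the differences of Sst, Npy or Calb2. The ratio of Vip to Calb2 was 6.23, 6.84, 4.55 and 7.27 in dorsal and 1.77, 1.44, 1.501 and 1.89 in ventral libraries, with no overlap. The dorsoventral difference of Vip was 1.11 below that of Calb2 in log2 (exact permutation test, p = 0.0286). Because Calb2 alone separated the regions and Vip moved little, this separation and its p largely follow from Calb2 and add no further support. The difference of Vip was 0.91 below that of Sst, and the ratios of Sst to Vip overlapped between the regions, at 14.0 to 35.01 in dorsal and 28.4 to 53.1 in ventral libraries (exact permutation test, p = 0.0571).

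Tac2, whose product neurokinin B acts on the receptor encoded by Tacr3, lies on the same chromosome (127724478 to 127731767, plus strand). Its FPKM was 3.58, 4.82, 5.01 and 4.14 in dorsal libraries D1, V1, D2 and V2. In ventral libraries D3, V3, D4 and V4 it was 7.20, 6.07, 6.43 and 5.63. The regions did not overlap, with a gap between the highest dorsal and the lowest ventral library that was narrower than the SD of either region. Mean expression was 4.39 ± 0.653 FPKM in dorsal and 6.33 ± 0.665 FPKM in ventral MEC (SD, n = 4 each), a 1.44-fold difference. On the log2(FPKM + 1) scale it came to 0.45 (SE 0.105, 95% interval 0.21 to 0.68, limma adjusted p = 0.0465). This call sat at the threshold, since the adjusted p was 0.0523 to 0.137 when any 1 of the 8 libraries was left out. It was also 0.0552 with libraries rescaled to one total and 0.0566 after quantile normalization. The difference of Tac2 was not distinguishable from that of Vip, at a gap of 0.34 in log2 with Tac2 the higher (exact permutation test, p = 0.200).

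**Figure D2:**
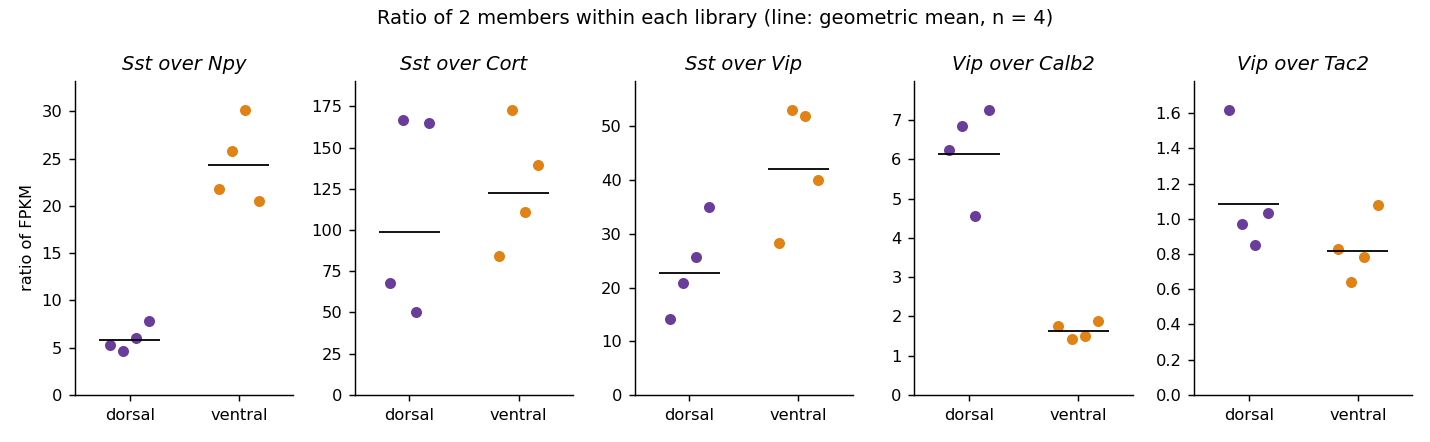
Ratio of the FPKM of 2 genes within each library for the 5 pairs compared, with dorsal libraries in purple, ventral libraries in orange, axes from 0 and the geometric mean of each region (n = 4) as a line. The regions separate for Sst over Npy, at most 7.85 in dorsal and at least 20.6 in ventral libraries, and for Vip over Calb2, and overlap for the other 3 pairs.

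Cck was the most abundant of the 8 genes, ranked at 37 of 13674, and lies on chromosome 9 (121489825 to 121495689, minus strand). Its FPKM was 423, 407, 490.4 and 498 in dorsal and 442, 384, 474 and 538 in ventral libraries. The ventral libraries held both the lowest and the highest value. Mean expression was 454 ± 46.3 FPKM in dorsal and 459.9 ± 64.1 FPKM in ventral MEC (SD, n = 4 each). The difference was 0.01 on the log2(FPKM + 1) scale, with a 95% interval of -0.24 to 0.26 (limma adjusted p = 0.977). Crh, which starts the stress hormone axis in the hypothalamus and marks part of the Vip cells in cortex, lies on chromosome 3 (19693401 to 19695396, minus strand). It was the scarcest member, at 0.480, 0.439, 0.592 and 0.411 FPKM in dorsal and 0.592, 0.432, 0.245 and 0.714 FPKM in ventral libraries. Its ventral values surrounded the dorsal ones, and a dorsoventral difference was not detectable at this level (exact permutation test, p = 0.943). By the deposited loci and GENCODE M21, none of the 8 protein-coding genes shares exon bases with another gene.

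The levels of the 8 genes spanned a wide range within the same tissue. By mean FPKM over the 8 libraries the order was Cck (457), Sst (165), Npy (13.7), Tac2 (5.36), Vip (4.998), Calb2 (1.97), Cort (1.52) and Crh (0.488). Each gene lay above the next in all 8 libraries (exact sign-flip test, p = 0.00781, the smallest it can give), except for 2 of the 7 neighbouring pairs. The order that set the pairs came from these same libraries, so the direction of each test was not chosen beforehand. Tac2 lay above Vip in 5 of 8 libraries (exact sign-flip test, p = 0.547) and Calb2 above Cort in 5 of 8 (p = 0.414). These neighbours thus did not differ beyond their spread over the 8 libraries, which includes the difference between the regions. By mean FPKM both pairs changed places between the regions. Vip (4.75 FPKM) was above Tac2 (4.39) in dorsal MEC and Tac2 (6.33) above Vip (5.24) in ventral MEC. Cort (1.21) was likewise above Calb2 (0.785) in dorsal MEC and Calb2 (3.16) above Cort (1.83) in ventral MEC. Single dorsal libraries disagreed on both orders. The ratio of Vip to Tac2 was 1.62, 0.968, 0.850 and 1.04 in D1, V1, D2 and V2. Cort was below Calb2 in the dorsal library headed V1 (0.582 and 0.683 FPKM). For Vip and Tac2, whose dorsoventral differences were not distinguishable, a change of place is thus not shown. The other members kept their place in the order of both regions.

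The differences were also measured against genes that all GABAergic neurons use. The mean log2(FPKM + 1) of Gad1 and Gad2, which encode the enzymes that make GABA, and Slc32a1, the vesicular GABA transporter, was 5.001 ± 0.0294 in dorsal and 5.001 ± 0.0562 in ventral libraries (SD, n = 4 each; exact permutation test, p = 1). Relative to this mean, Sst was 1.02 and Calb2 1.22 higher ventrally, Tac2 was 0.45 higher and Npy was 0.95 higher dorsally, and for each of the 4 the regions did not overlap (exact permutation test, p = 0.0286 each, of 8 genes tested and not adjusted). For Sst this p was 0.0571 without the library headed V3, D4 or V4, and for Tac2 without that headed D1, V1 or V2. The differences of Cort, Vip, Cck and Crh relative to the same mean were 0.39, 0.11, 0.01 and 0.006 (exact permutation test, p = 0.229, 0.514, 0.943 and 1). Gad1 alone was 60.9 ± 1.85 FPKM in dorsal and 54.9 ± 3.49 in ventral MEC, Gad2 62.2 ± 1.63 and 68.5 ± 3.98, and Slc32a1 7.42 ± 0.641 and 7.495 ± 0.684 (SD, n = 4 each). Gad1 was thus lower and Gad2 higher ventrally, each without overlap between the regions, so the flat mean combines opposite shifts. Because this mean hardly moved, the differences relative to it nearly repeat those of the single genes. None of the 10 GABAergic neuron genes tested with limma was called, while 4 had an unadjusted p under 0.05 (16% of all genes tested), and their median log2 ratio was 0.19 against -0.01 for all genes tested.

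The receptors for these peptides were looked up from a list of 20 genes, all of them in the table, and 11 were tested. None of the 11 was called by limma, although 7 had an unadjusted p under 0.05, a level reached by 2191 (16%) of all 13674 genes tested. Their median log2 ratio was 0.18, and 8 of the 20 stayed under 1 FPKM in every library. Tacr3, the receptor for the product of Tac2, had the largest ratio of the 11. Its FPKM was 1.41, 0.642, 0.731 and 0.798 in dorsal and 3.00, 1.89, 2.01 and 1.49 in ventral libraries. With a dorsal mean of 0.897 FPKM, it passed the filter of 1 FPKM only through its ventral values. The regions did not overlap, and the difference of 0.70 on the log2(FPKM + 1) scale (95% interval 0.32 to 1.08) had a limma adjusted p of 0.0529. It was called with 1 of the 2 other scalings and in 2 of the 8 refits without 1 library.

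Among the receptors of somatostatin and cortistatin, Sstr1, Sstr2, Sstr3 and Sstr4 were tested. The largest difference was that of Sstr4, at 4.57 ± 0.847 FPKM in dorsal and 5.83 ± 0.560 in ventral MEC (SD, n = 4; limma adjusted p = 0.233). Sstr1 had mean levels of 1.51 and 1.59 FPKM in dorsal and ventral MEC, Sstr2 of 4.14 and 4.71, and Sstr3 of 4.24 and 4.79, and Sstr5 was at 0 in 6 of 8 libraries. The Y receptor Npy1r had 12.5 ± 0.826 FPKM in dorsal and 14.6 ± 1.45 in ventral MEC (SD, n = 4; limma adjusted p = 0.233), while its ligand Npy was lower ventrally. Npy5r had mean levels of 2.07 and 2.32 FPKM, Npy2r stayed at 0.692 and 0.934, below the filter, and Npy6r was at 0 throughout. The largest limma log2 fold change among the tested receptors of both peptides was 0.30, beside 1.02 for Sst and -0.95 for Npy, and the gap between ligand and receptor was not tested.

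For Vip, whose receptors also bind the related peptide PACAP, Vipr1 had 5.83 ± 0.550 FPKM in dorsal and 4.23 ± 0.866 in ventral MEC (SD, n = 4; limma adjusted p = 0.103). The PACAP receptor Adcyap1r1 had 34.6 ± 4.81 and 42.7 ± 4.65 FPKM (limma adjusted p = 0.182), and Vipr2 had mean levels of 0.547 and 0.487. Cckbr, the main cortical receptor for cholecystokinin, was at 17.0 ± 0.838 FPKM in dorsal and 12.9 ± 1.88 in ventral MEC without overlap between regions (SD, n = 4; limma adjusted p = 0.0631). Cckar was at 0 in 7 of 8 libraries. The Crh receptor Crhr1 had 4.12 ± 0.664 and 3.15 ± 0.429 FPKM (limma adjusted p = 0.227), with Crhr2 at mean levels of 0.159 and 0.248. The tachykinin receptors Tacr1 and Tacr2 and the Y receptor Ppyr1 had mean levels under 0.2 FPKM in both regions. The plot of limma estimates sets the receptors beside the members.

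**Figure D3:**
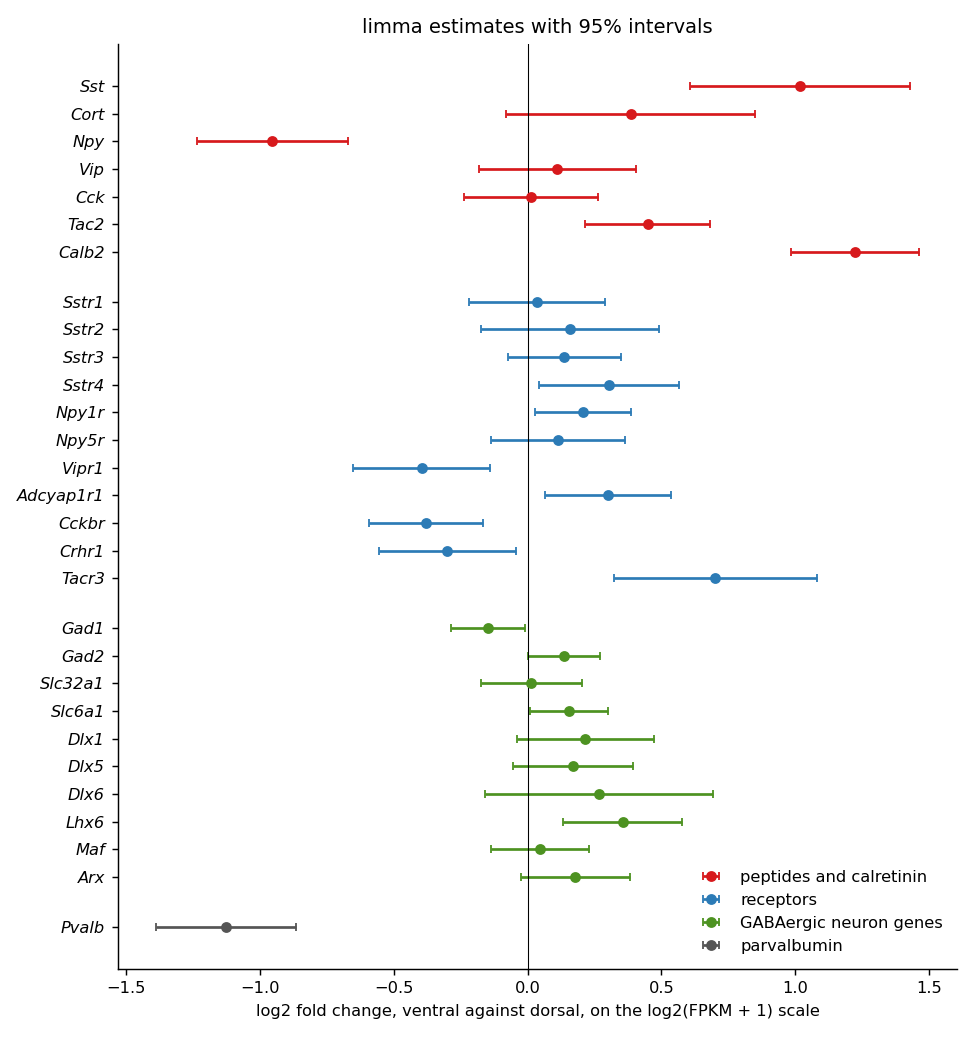
Log2 fold change of ventral against dorsal MEC on the log2(FPKM + 1) scale with its 95% interval from limma, for the 7 members tested (red), the 11 receptors tested (blue), the 10 GABAergic neuron genes tested (green) and Pvalb (grey). The intervals of Sst, Tac2 and Calb2 lie above 0 and that of Npy below it, and the estimates of the GABAergic genes lie nearer to 0 than those of Sst, Npy or Calb2.

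Other genes of the same cell classes, and genes related to the members, differed in both directions. Of 3 related ligands and calcium-binding proteins tested, Tac1, the substance P precursor, rose from 3.88 ± 0.629 to 7.93 ± 0.728 FPKM ventrally (SD, n = 4; limma adjusted p = 0.00178). Calb1, which encodes calbindin, rose from 4.57 ± 0.169 to 7.85 ± 2.05 FPKM (limma adjusted p = 0.0306), and this call held in 3 of the 8 refits without 1 library. The paper places Calb1 in the cell islands of layer II, so it is not particular to interneurons in the MEC. Among 7 somatostatin interneuron genes tested, Elfn1, a synaptic protein of these cells, was called V>D at 3.84 ± 0.703 and 5.49 ± 0.193 FPKM (limma adjusted p = 0.0469), and in 1 of the 8 such refits. The median log2 ratio of that list was 0.10, and the other 6 were not called. Among 6 Vip and calretinin interneuron genes tested, Nr2f2, a transcription factor of interneurons from the caudal ganglionic eminence, rose from 5.43 ± 0.301 to 11.1 ± 0.832 FPKM (limma adjusted p = 0.000275) and Penk, the enkephalin precursor, from 1.80 ± 0.162 to 3.19 ± 0.562 (limma adjusted p = 0.0204). The Penk call held in 3 of the 8 such refits as well. The median log2 ratio of that list was 0.22, and the other 4 were not called. Prox1 (4.48 and 3.49 FPKM in dorsal and ventral MEC) and Cxcl14 (6.31 and 5.59) had lower ventral means, and Htr3a and Adarb2 higher ones. Of 6 neurogliaform cell genes tested, Lamp5 was called D>V, at 43.3 ± 2.65 and 28.3 ± 1.49 FPKM (limma adjusted p = 0.00139), in the direction of Npy. The other 5 were not called, and the median log2 ratio of that list was 0.17, in the opposite direction. Of 6 parvalbumin interneuron genes tested, Pvalb (15.7 ± 2.15 and 6.63 ± 0.961 FPKM) and Syt2 (7.60 ± 0.717 and 3.02 ± 0.407 FPKM) were D>V, with limma adjusted p = 0.000942 and 0.000408, and Tac1, which is also on that list, was V>D. The other 3 were not called and had higher ventral means. These were Kcnc2 (22.2 and 26.5 FPKM in dorsal and ventral MEC), Lhx6 (5.19 and 6.91) and Cox6a2 (5.03 and 5.74). The median log2 ratio of that list was 0.22, opposite to Pvalb and Syt2. No gene of the 3 tested on the Cck basket cell list was called by limma, 1 with an unadjusted p under 0.05, beside the same 16%.

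Markers of other cell types moved between the regions too. All 8 oligodendrocyte genes were called D>V, with a median log2 ratio of -0.86 and a summed FPKM of 837 to 1104 in dorsal and 461 to 605 in ventral libraries, the direction of Npy. The leptomeningeal genes Dcn and Igf2 were called V>D, with a summed FPKM over 7 genes of 69.7 to 75.3 in dorsal and 112 to 126 in ventral libraries, the direction of Sst, Tac2 and Calb2. Of the glutamatergic neuron genes 1 of 8 tested was called, Slc17a6 as D>V, and Ppp1r1b was the 1 called gene of 5 tested on the amygdala and striatum list, also D>V. No gene was called by limma among 6 astrocyte, 7 microglia, 5 endothelial, 2 choroid plexus and 1 dentate gyrus genes tested, of which 3, 2, 2, 0 and 1 had an unadjusted p under 0.05, against 16% of all genes tested. The part of these shifts in the results for the 8 genes was not tested.

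The genes whose profile over the 8 libraries was most like that of each called member were found by the root mean square difference of log2(FPKM + 1) after centring each gene on its mean. For Sst these were Oxtr, the oxytocin receptor, at a difference of 0.221, Dpysl5 at 0.241 and Dgkg at 0.256, all called V>D. Oxtr rose from 1.22 to 3.73 FPKM. For Npy they were Aldh1a1, a retinaldehyde dehydrogenase, at 0.147, Mbp, which encodes myelin basic protein, at 0.155 and Tmem88b at 0.155, all called D>V. For Calb2 they were Col23a1 at 0.133, Zcchc12 at 0.139 and Nmbr, the neuromedin B receptor, at 0.148, all called V>D. Nmbr rose from 3.25 to 9.81 FPKM. For Tac2 they were Arhgap33 at 0.0705, which was called V>D, and Lyz2 at 0.0781 and Ece2 at 0.0838, which were not called. The nearest profile was thus farther off for Sst than for the other 3 genes. Since these genes were picked for likeness to a called member, calls in its direction largely follow from the choice.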

How the data were processed

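RNA was extracted from pooled dorsal or ventral MEC tissue (integrity numbers 7.1 to 8.5), and cDNA was amplified from 120 ng per sample and sequenced as paired ends on an Illumina HiSeq. Base calls were processed with CASAVA 1.8, and fragments were aligned with TopHat2 2.0.8 using Ensembl release 73 (GRCm38). The deposited FPKM values were obtained by the authors with Cuffdiff 2, summed over the transcripts of a gene. Strandedness of the counting is not given in the sources used here. The authors' deposited comparison table, with fold changes and p-values, was used only for gene symbols, loci, the mark for too few alignments and the regional means that assign the libraries. A table of fragment numbers names libraries by condition and replicate and could not be matched to single samples, so its 4 columns with a value per library stayed unused, and library totals are not used here. The sum of FPKM per library was 0.941 to 1.08 times the median over libraries.

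The regions were compared in R 4.3.3 with limma 3.58.1, fitted to log2(FPKM + 1) with trend, 2-sided and without pairing. The fit took genes that had enough alignments and averaged 1 FPKM or more over 8 libraries. Fold changes on this scale understate those of scarce genes. Exact permutation tests over the 70 regroupings of libraries and sign-flip tests over 8 libraries were run in Python 3.11.15 with pandas 2.3.3, SciPy 1.17.1 and NumPy 2.4.6, and figures were drawn with matplotlib 3.10.9. The design foresaw adjusting these p-values over the members, but they are given unadjusted, with the number of tests. The members and the 20 gene lists were chosen with earlier results of these data known. Genes named are the members, the called genes of the lists, the receptors, Gad1, Gad2, Slc32a1 and Pvalb, and the 3 genes most alike each called member, and the low Cajal-Retzius cell genes were added after their values were seen. The receptor list holds Npy4r and its older symbol Ppyr1, the name in the table, which count as 1 gene, and Dlx6os1 of the GABAergic list was not matched in the table. The fit was tested on simulated data for the ventral against dorsal comparison with 13674 genes, where it recovered 74 of 100 genes changed by 0.5 in log2 and 99 of 100 changed by 1, made 13 of 186 calls outside them, and made 0 calls in data without any change. The simulated noise was independent for each gene and library. Shifts shared by many genes of a library were thus left out, and the rate of false calls in the real data is not known from it. Replicates are pools of 3 or 4 mice, so p-values measure the spread between pools. Alternatives were a smaller constant of 0.1, other filters, 2 other scalings, sample weights, no trend, leaving out each library, and the regions named by the headers.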

Additional observations from a re-analysis of the deposited data

Results flagged for a closer look

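Within each region, 76 genes (the members, the receptors, the Cajal-Retzius cell genes, Gad1, Gad2, Slc32a1, Pvalb, the called genes of the other lists and the genes most alike a member) were screened for a library far from the other 3 by Dixon's test, in 146 groups, and 8 were found, where chance gives about 1 in 20 groups. None was a member. Penk was 1.56 FPKM in the dorsal library headed D1 against 1.85 to 1.90 in the other dorsal libraries. Mog was 8.21 FPKM in the ventral library headed D3 against 12.01 to 12.4 in the other ventral libraries, and Vipr1 was 5.51 FPKM in the same library against 3.68 to 3.95. Adcyap1r1 was 49.6 FPKM in the ventral library headed D4 against 39.9 to 41.2. Cckar was 0.0185 FPKM in the dorsal library headed V1 and 0 in the others. The remaining 3 were in the ventral library headed D3, where Aldh1a1 was 6.699 FPKM against 8.92 to 9.13 in the other ventral libraries, Tmem88b was 8.59 against 9.91 to 10.1, and Lyz2 was 11.4 against 8.58 to 9.04.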

How the results depend on the processing

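No paired analysis was possible because the labels do not give which pool of mice a library comes from. Values are log2 ratios of mean FPKM for single genes. Changing the constant, the filters, the scaling, the weights or the trend moved no call of Sst, Npy or Calb2, except that a minimum of 5 FPKM leaves Calb2 untested. The Tac2 call was lost without an FPKM filter (0.529, limma adjusted p = 0.0505), with scarcely aligned genes kept (0.529, 0.0539), after rescaling to one total (0.585, 0.0552) and after quantile normalization (0.525, 0.0566). Rescaling to one total left 195 D>V genes against 201 V>D, so that 49.2% of calls were D>V in place of 59.8%, and moved the median difference of all genes from -0.006 to 0.037 in log2. Leaving out 1 library gave 157 to 341 D>V and 90 to 191 V>D genes, lowest without the library headed V1, with 163 and 91 without that headed D3. The ranges over these fits were 0.892 to 1.20 for Sst, -1.17 to -0.950 for Npy, 0.444 to 0.598 for Tac2, 1.90 to 2.11 for Calb2, 0.363 to 1.03 for Cort, 0.0635 to 0.259 for Vip and -0.0672 to 0.0939 for Cck. Relative to the GABAergic mean the ranges were 0.906 to 1.18 for Sst, 0.380 to 0.519 for Tac2, -0.0448 to 0.0999 for Cck and -0.0404 to 0.0737 for Crh, and Crh was -0.0249 with a constant of 0.1 and -0.0274 after rescaling. With 3 against 4 libraries the exact test can reach 0.0286, which Npy and Calb2 did in all 8 refits.

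The regions named by the headers gave 1 D>V and 0 V>D genes by limma (721 at an unadjusted p under 0.05, beside 2191 in the comparison reported), and the 4 libraries on which both sources name the same region gave 0 and 0 (1240). Under the headers' regions the log2 ratios were 0.165 for Sst, -0.804 for Cort, 0.252 for Npy, -0.155 for Vip, -0.00256 for Cck, -0.104 for Tac2 and -0.258 for Calb2. Relative to the GABAergic mean they were 0.160 for Sst, -0.550 for Cort, 0.166 for Npy, -0.196 for Vip, -0.0761 for Cck, -0.0385 for Crh, -0.126 for Tac2 and -0.255 for Calb2, with -0.00663 for Sst minus Npy and 0.0587 for Vip minus Calb2. In the 4 libraries they were 1.24 for Sst, -0.192 for Cort, -0.762 for Npy, -0.0138 for Vip, 0.446 for Tac2 and 1.67 for Calb2, none past the threshold with 2 libraries a region. Fragment totals were not used, so the counting error of scarce genes such as Crh, Cort and dorsal Calb2 is not known.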
